A study of Mus musculus with 14 samples.

Results

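The genes described here are 5 connexin genes in the mouse gut muscle coat, chosen by name: Gja1 (connexin 43), Gja4 (connexin 37), Gja5 (connexin 40), Gjc1 (connexin 45) and Gjc3 (connexin 29). They are 5 of the 40481 genes in the deposited bulk count table, and all 5 were among the 20886 genes with enough counts to be tested. The bulk data were 12 RNA-seq libraries of muscularis, the muscle layers of the gut wall with their nerves, vessels and interstitial cells, from C57BL/6 mice. Colon and jejunum each had 3 libraries with the genotype label Carmn iKO, called KO here, and 3 labelled WT mTmG, called WT. Carmn is a long non-coding RNA of smooth muscle, and the study's title names it as required for visceral muscle contraction. The other 2 libraries, 1 per genotype, held single nuclei of colon muscularis. The sources used here do not give how and in which cells Carmn was deleted, what drives the deletion, or the age, sex and treatment of the mice. Library names below (m1, t1, t4, t6 and t7) are the tags in their labels.

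Connexins are membrane proteins that assemble in rings called connexons, and connexons of neighbouring cells dock to form gap junction channels. These channels pass ions and small molecules, and so let electrical slow waves and calcium signals spread between cells. In the gut wall gap junctions are known to join smooth muscle cells, interstitial cells of Cajal (the pacemaker cells of gut muscle) and vessel wall cells. Connexins 37 and 40 are best known from endothelium, connexin 45 from muscle and pacemaker cells, and connexin 29 from glia that wrap nerve fibres.

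The start regions of 3 of the genes are shown because the data bear on them below: Gja1 was the member whose level differed between gut regions, Gja4 had an open chromatin region over the window shown, and Gjc3 had most of its UMIs (molecules counted by barcode) in glia-like nuclei of the colon. The sequences are from RefSeq (GRCm38.p6), cover 250 bases before to 50 bases after the annotated start, and run 5′ to 3′ along the gene. They lie at chr10:56377050-56377349 on the plus strand (Gja1), chr4:127313990-127314289 on the minus strand (Gja4) and chr5:137963049-137963348 on the minus strand (Gjc3). Capitals mark an AP-1 motif (TGANTCA) in Gja1 and a GC box (GGGCGG) in Gja4, and Gjc3 has no capitals.
Gja1: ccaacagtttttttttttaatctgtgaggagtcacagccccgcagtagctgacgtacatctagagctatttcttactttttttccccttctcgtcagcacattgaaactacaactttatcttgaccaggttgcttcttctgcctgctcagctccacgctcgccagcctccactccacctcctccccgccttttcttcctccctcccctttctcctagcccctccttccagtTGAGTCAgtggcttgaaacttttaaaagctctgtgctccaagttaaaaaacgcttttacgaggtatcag
Gja4: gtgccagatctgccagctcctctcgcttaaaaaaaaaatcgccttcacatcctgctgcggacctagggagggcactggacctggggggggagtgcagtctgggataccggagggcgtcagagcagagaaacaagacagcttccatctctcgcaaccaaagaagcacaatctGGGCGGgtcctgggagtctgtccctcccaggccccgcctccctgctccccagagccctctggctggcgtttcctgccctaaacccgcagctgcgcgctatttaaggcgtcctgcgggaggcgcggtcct
Gjc3: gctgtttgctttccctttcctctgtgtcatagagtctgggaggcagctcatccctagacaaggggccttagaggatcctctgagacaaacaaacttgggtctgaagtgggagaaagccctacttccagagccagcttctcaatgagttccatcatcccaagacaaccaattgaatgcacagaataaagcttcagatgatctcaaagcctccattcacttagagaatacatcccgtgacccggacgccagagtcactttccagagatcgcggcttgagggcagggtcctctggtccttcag
In all, 5 motifs were searched on both strands: AP-1 (TGANTCA), the GC box (GGGCGG), the TATA box (TATAAA), a SOX motif (ACAAAG) and the CArG box, and none of them shares letters with another match in the 3 windows. The AP-1 match of Gja1 began 19 bases before the start, and 7.81% of 32851 promoters in the same table held such a match. The GC box of Gja4 began 79 bases before the start, and 35.66% of promoters held one. The share holding the TATA box letters was 13.62%, that of the SOX motif 18.71% and that of the CArG box 1.63%, and none of the 3 windows held any of these. The Gja5 window, not shown, held a GC box that began 17 bases before the start and a SOX motif that began 125 bases before it. These are matches of letters and not measured binding sites.

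The targeted gene went against its label. Carmn read 461, 304 and 718 normalised counts (CPM, counts scaled to library size) in the colon KO libraries m1, t4 and t6, and 252, 172 and 352 in colon WT (t1, t6, t7). Jejunum KO read 996, 818 and 909 (m1, t1, t4) and jejunum WT 240, 206 and 326 (t1, t6, t7). The groups are therefore called libraries labelled KO or WT, and directions below follow the labels. Total counts ranged from 24254905 to 44315104 per bulk library. Nothing in the labels says whether libraries of a group came from separate animals, so p-values measure the spread between these libraries, which may be technical. Smooth muscle markers were present in every bulk library, and their summed level ranged from 33620 to 89850 CPM.

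Levels of different connexins were compared per kilobase of exon (CPM per kb), since the exons of Gja1 span 10257 bases and those of Gja4 1685. These lengths merge all annotated exons of a gene, and the transcripts in use were not measured. Gja1 was the highest and Gjc1 the next in 12 of 12 bulk libraries. In WT colon the mean per kb was 11.1 ± 1.32 for Gja1 (SD, n = 3), 6.95 ± 1.66 for Gjc1, 2.75 ± 0.931 for Gja4, 1.22 ± 0.641 for Gja5 and 0.865 ± 0.291 for Gjc3. In WT jejunum it was 32.1 ± 4.37 for Gja1, 9.53 ± 1.02 for Gjc1, 1.29 ± 0.952 for Gja4, 0.959 ± 0.194 for Gjc3 and 0.560 ± 0.237 for Gja5. The ranges of Gja1 and Gjc1 did not overlap in either WT group, nor did those of Gjc1 and Gja4. In WT colon Gja4 also lay above Gja5 and Gjc3 without overlap, in WT jejunum these 3 overlapped, and Gja5 and Gjc3 overlapped in both. The order of Gja4 and Gja5 depended on the lengths. In CPM, without them, the WT colon mean was 6.99 ± 3.68 for Gja5 and 4.64 ± 1.57 for Gja4, with overlap. Over the 12 libraries Gja4 took the third place in 11 libraries and Gja5 the last place in 9. The Gja5 counts are uncertain, because 165 exon bases of the gene also lie in Gpr89 on the opposite strand and the use of strand in counting is not stated.

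**Figure D1:**
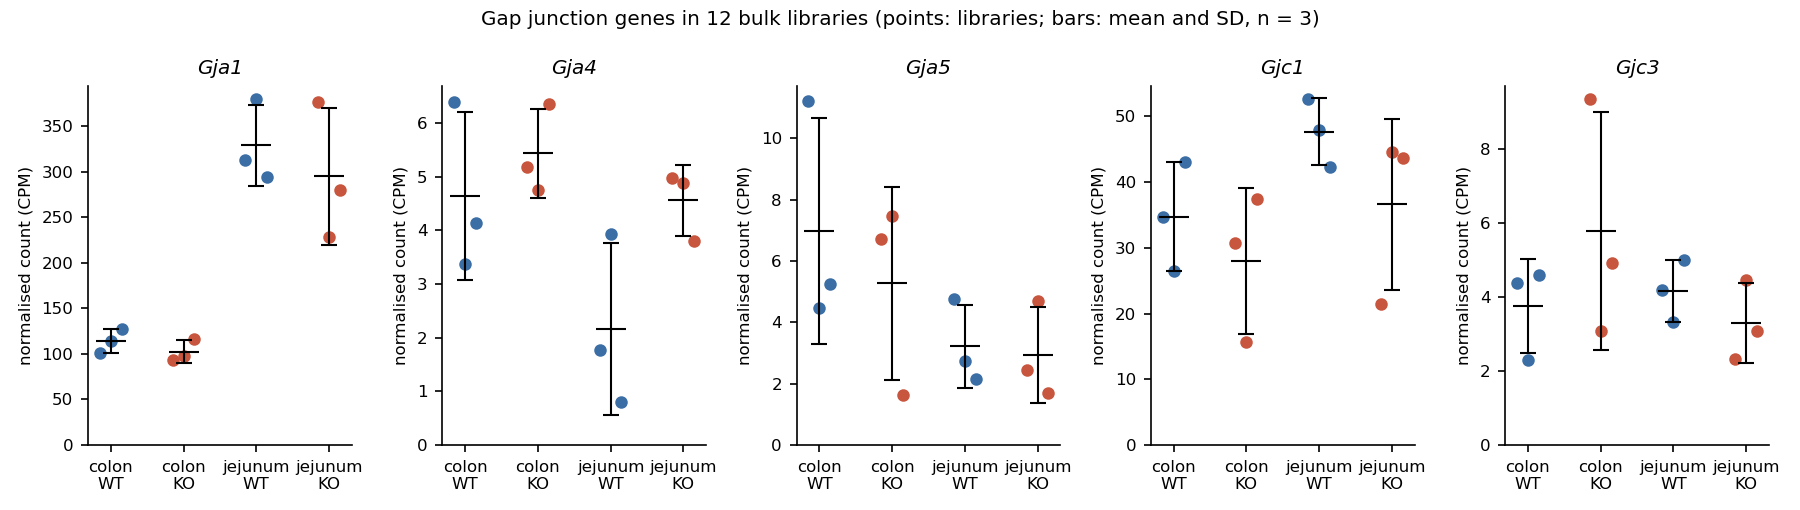
Normalised counts (CPM, linear axis from 0) of the 5 genes in each bulk library, grouped by tissue and genotype label; points are libraries, and the bar is the mean with its SD (n = 3). Gja1 lies between 93.0 and 127.7 CPM in the colon libraries and between 228.1 and 379.7 in the jejunum libraries.

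Gja1, the main ventricular connexin of the heart and a connexin of many muscle and epithelial cells, was lower in colon than in jejunum in both genotypes. It lies at chr10:56377330-56402513 on the plus strand of GRCm38 (ENSMUSG00000050953). WT colon had 101, 115 and 128 CPM (t1, t6, t7), and WT jejunum 312, 380 and 295. Colon KO had 93.0, 97.4 and 117 CPM (m1, t4, t6), and jejunum KO 377, 228 and 280 (m1, t1, t4). Every colon library was below every jejunum library of its own genotype, and the 6 colon libraries were all below the 6 jejunum libraries. Between WT groups the log2 fold change was -1.53 (SE 0.211, 95% interval -1.99 to -1.06), a colon level 0.347 times that of jejunum (edgeR quasi-likelihood test, adjusted p = 0.0072). It was the one member called, where 1.56% of all tested genes were called and 22.9% had groups that did not overlap. Between the groups labelled KO the log2 fold change was -1.53 (SE 0.212), with an edgeR adjusted p of 0.0099, where 1.29% of genes were called and 19.6% had groups that did not overlap. That second call ended when the 6 KO libraries were fitted alone (log2 fold change -1.55, edgeR adjusted p = 0.137), and this comparison was added after the WT difference had been seen.

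Markers of several other cell types moved with the tissue beside Gja1. The 5 markers of interstitial cells of Cajal summed to 424 to 525 CPM in WT colon and 648 to 800 in WT jejunum, with 1 of 5 higher in colon. Among the libraries labelled KO they summed to 204 to 465 CPM in colon and 371 to 758 in jejunum. The jejunum KO library m1 had the lowest of those jejunum sums, 371 CPM, and the highest Gja1 of its group. The 6 mesothelial markers, of the cells that cover the gut surface, summed to 179 to 471 CPM in WT colon and 900 to 1857 in WT jejunum, with 0 of 6 higher in colon. The 7 markers of vascular mural cells summed to 1214 to 1703 CPM in WT colon and 4095 to 5487 in WT jejunum, although 4 of 7 were higher in colon. The 5 adipocyte markers, as a sign of attached fat, summed to 34.3 to 64.3 CPM in WT colon and 44.1 to 418 in WT jejunum. None of these markers was at 0 in a WT library. Markers of other types went the other way. Higher in WT colon were 8 of 10 smooth muscle markers, 6 of 8 fibroblast markers and 7 of 7 enteric glia markers. The 6 lymphatic endothelial markers summed to 322 to 460 CPM in WT colon and 29.97 to 168 in WT jejunum. The part of any of these cell types in the Gja1 difference was not tested. In bulk libraries, fewer cells of a type and less RNA per cell cannot be told apart.

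No member was called between the genotype labels in either tissue. For Gja1 the change in colon, KO minus WT, was -0.16 (95% interval -0.61 to 0.29) on the log2 scale, with an edgeR adjusted p of 0.787. In jejunum it was -0.16 (interval -0.61 to 0.30), with an edgeR adjusted p of 0.789. Across all tested genes 0.388% were called in colon and 0.215% in jejunum, and 19.2% and 22.2% had groups that did not overlap. The values of the KO and WT libraries overlapped for each of the 5 members in both tissues.

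Gjc1 encodes connexin 45 and lies at chr11:102799579-102819700 on the minus strand. Colon KO had 30.8, 15.7 and 37.5 CPM (m1, t4, t6) and colon WT 34.7, 26.5 and 43.1 (t1, t6, t7). Jejunum KO had 21.5, 44.6 and 43.7 CPM (m1, t1, t4) and jejunum WT 52.6, 48.0 and 42.4 (t1, t6, t7). In each tissue 1 KO library was the lowest, t4 in colon and m1 in jejunum, and the other 2 KO libraries lay within the WT range. The log2 fold change, KO minus WT, was -0.31 (SE 0.337, edgeR adjusted p = 0.737) in colon, or -0.02 without KO t4, and -0.38 (SE 0.337, edgeR adjusted p = 0.667) in jejunum. In colon the 10 smooth muscle markers, which include genes of the contractile apparatus, were all lower in KO (median log2 fold change -0.54), with none called. Their summed level was 33620 to 45110 CPM in colon KO and 49070 to 71270 in colon WT. In jejunum 7 of the 10 were higher in KO (median log2 fold change 0.36). There KO m1, the lowest in Gjc1, had the highest smooth muscle sum of all bulk libraries, 89850 CPM. Colon KO t4, the lowest in Gjc1 in colon, had 12840 CPM of the 8 fibroblast markers. Colon KO m1 and t6 had 3014 and 2611, and colon WT 3438 to 5794. The part of these markers in the Gjc1 values was not tested. Between WT tissues the Gjc1 difference was -0.46 (SE 0.337, edgeR adjusted p = 0.65).

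Gja4 encodes connexin 37 and lies at chr4:127311421-127314039 on the minus strand. Colon KO had 5.19, 4.75 and 6.36 CPM (m1, t4, t6) and colon WT 6.40, 3.38 and 4.14 (t1, t6, t7). Jejunum KO had 4.98, 4.89 and 3.80 CPM (m1, t1, t4) and jejunum WT 1.77, 3.93 and 0.799 (t1, t6, t7). The lowest value rested on 30 counts, and WT jejunum t6 lay above the lowest KO library, so the jejunum groups overlapped. The jejunum difference, KO minus WT, was 1.07 (SE 0.482, 95% interval 0.01 to 2.13), and edgeR gave an adjusted p of 0.371. It was 0.66 without WT t7 and 1.83 without WT t6. In colon it was 0.23 (SE 0.473, edgeR adjusted p = 0.886). The WT tissue difference, colon minus jejunum, was 1.10 (SE 0.482), also not past the threshold (edgeR adjusted p = 0.354). Endothelial markers stood beside these values: the 7 blood endothelial markers summed to 100 to 216 CPM in WT jejunum and 229 to 410 in KO jejunum, without overlap. The 6 lymphatic markers summed to 29.97 to 168 CPM in WT jejunum, 167 to 252 in KO jejunum and 322 to 460 in WT colon, with Ccl21a at 0 in 8 of 12 libraries. The part of these markers in the Gja4 values was not tested.

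Gja5 encodes connexin 40, the arterial endothelial and atrial connexin, and spans chr3:96904693-97077416 on the plus strand. Colon KO had 6.71, 7.46 and 1.65 CPM (m1, t4, t6) and colon WT 11.2, 4.48 and 5.27 (t1, t6, t7). Jejunum KO had 2.44, 4.70 and 1.70 CPM (m1, t1, t4) and jejunum WT 4.75, 2.74 and 2.16 (t1, t6, t7). Single libraries set the direction: the log2 change in colon was -0.41 with all libraries and 0.14 without the WT library t1. The spread was wide, with a 95% interval of -1.70 to 0.88 in colon and -1.43 to 1.18 in jejunum (edgeR adjusted p = 0.816 and 0.955). The 5 arterial endothelial markers ranged from 57.3 to 85.9 CPM in sum over all 12 libraries.

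Gjc3 encodes connexin 29 and lies at chr5:137953461-137963098 on the minus strand. Colon KO had 9.36, 3.09 and 4.91 CPM (m1, t4, t6) and colon WT 4.39, 2.31 and 4.60 (t1, t6, t7). Jejunum KO had 2.34, 4.48 and 3.08 CPM (m1, t1, t4) and jejunum WT 4.199, 3.32 and 5.01 (t1, t6, t7). Colon KO m1 was the highest of the 12, and the other colon libraries of both labels overlapped. The log2 change, KO minus WT, was 0.62 (SE 0.437, edgeR adjusted p = 0.558) in colon, or 0.09 without KO m1, and -0.34 (SE 0.437, edgeR adjusted p = 0.786) in jejunum. The 7 enteric glia markers were all higher in WT colon than in WT jejunum, with sums of 219 to 290 against 144 to 156 CPM, while Gjc3 differed by -0.15 (SE 0.437, edgeR adjusted p = 0.956) on the log2 scale.

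**Figure D2:**
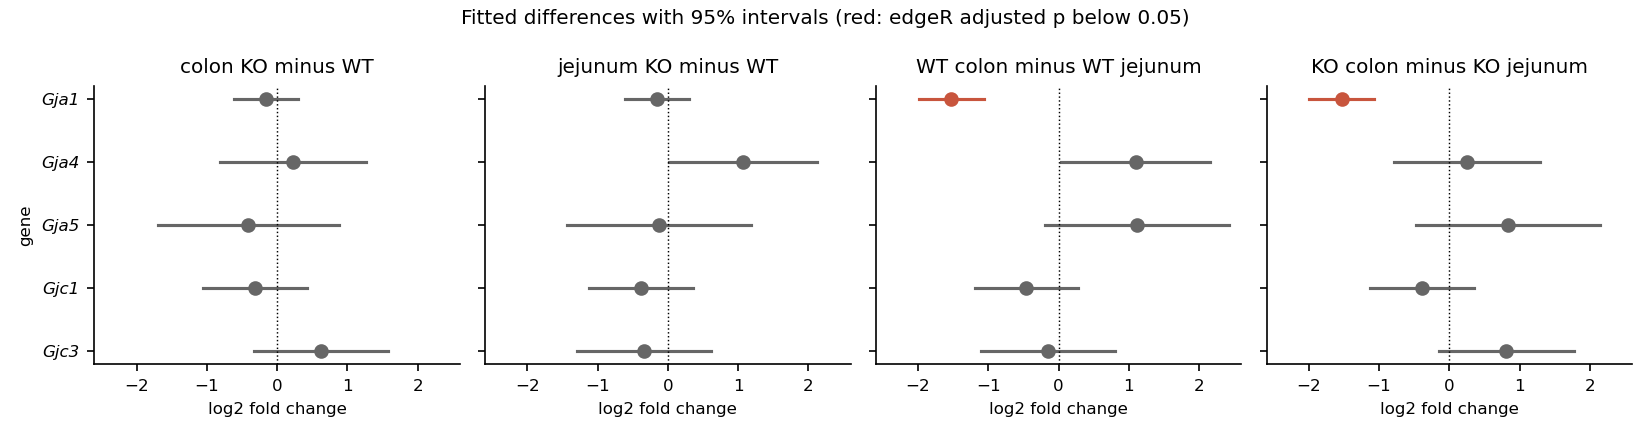
Fitted log2 fold changes of the 5 genes (points) with 95% intervals (lines) in 4 comparisons; red marks an edgeR adjusted p below 0.05. Gja1 is red at -1.53 in both tissue comparisons, and the other intervals are grey.

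The change by genotype label was not shown to differ between tissues for any member. The test of the difference, colon change minus jejunum change, called 0 of 20886 genes (0.00%) with edgeR, with 869 genes at an unadjusted p below 0.05, and 38 genes with DESeq2 and 0 with limma voom. For Gja1 that difference was -0.00 (95% interval -0.64 to 0.64), and for Gjc3, which had the largest of the 5, it was 0.96 (interval -0.39 to 2.31). The smallest edgeR adjusted p among the 5 members was 0.941.

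Other genes of the pathway were taken from 2 fixed lists. Of 18 other connexin and pannexin genes, 11 were tested and none was called in any of the 5 comparisons. Among the most abundant were Panx1, a pannexin channel with a mean of 11.99 CPM, and Gjb5 with 5.30. The median log2 change of the 11 was 0.25 in colon and 0.21 in jejunum, beside 0.00 and 0.02 over all genes tested. Of 17 partners of connexins (scaffold, kinase and trafficking genes), all were tested and none was called between genotype labels, with medians of -0.20 in colon and 0.01 in jejunum. Nedd4, a ubiquitin ligase, had the highest mean at 1281 CPM, followed by Ctnnb1 (beta-catenin) at 504 and Cav1 (caveolin 1) at 502. Cav1 in colon was 310 ± 102 CPM in KO and 653 ± 82.6 in WT (SD, n = 3), with an edgeR adjusted p of 0.152. Between WT tissues 1 partner was called: Dbn1, the actin binding protein drebrin, was higher in colon (131 ± 36.1 CPM) than in jejunum (46.6 ± 6.998), a log2 difference of 1.49 with an SE of 0.324 and an edgeR adjusted p of 0.048. Between KO tissues 1 was called: Cdh2 (N-cadherin) was higher in colon (53.4 ± 6.43 CPM) than in jejunum (27.1 ± 0.988). Its log2 difference was 0.98 with an SE of 0.189 and an edgeR adjusted p of 0.035. Across all tested genes 1.56% were called between WT tissues and 1.29% between KO tissues. Whether the Dbn1 and Cdh2 calls hold under other settings was not tested.

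For each member the 3 genes with the most similar log2 CPM over the 12 libraries were found among 14280 genes, by Pearson's r. For Gja1 they were Gstm2 (r = 0.97), Cd59a (0.96) and Lrrc10b (0.96). For Gja4 they included Mmrn2 (0.95) and Foxc2 (0.95). For Gja5 they were Dclk1 (0.91), Acp2 (0.88) and Gm13111 (0.82), and for Gjc1 they included Rab12 (0.96) and Rai2 (0.95). For Gjc3 they were Sirt4 (0.94), Gdap1l1 (0.92) and Arsa (0.92). The 12 points mix colon and jejunum libraries of unlike depth, and each trio was picked as the highest of all, so the values are descriptions only.

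The nuclei show in which colon cells the members' RNA was found. The WT library held 3476 barcodes and the KO library 2164, of which 2497 and 1606 nuclei were kept, with medians of 1628 and 1900.5 unique molecular identifiers (UMIs) per nucleus. In all, 11 barcodes occurred in both libraries, 3 of them among the kept nuclei. Clustering without the connexins and Carmn gave 24 clusters, in 13 named classes and 1 unnamed cluster of 105 nuclei led by Hs3st4 and Grin3a. Class names were rebuilt from fixed markers, and a different naming could move the values. With 1 library per genotype no test between genotypes was possible. Levels are UMIs per 10000 UMIs of the class, with exact Poisson 95% intervals that cover counting error only.

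Gja1 gave 344 UMIs and was highest in interstitial cell of Cajal-like nuclei, at 3.90 (interval 3.11 to 4.84, 83 UMIs in 40 of 102 nuclei). Both libraries placed it there, at 3.595 in WT and 4.32 in KO. At a coarser clustering (resolution 0.5) the class grew to 233 nuclei and its Gja1 level was 1.13. Next came the Hs3st4 and Grin3a cluster at 0.975 (0.671 to 1.37), mesothelial-like nuclei at 0.781 (0.653 to 0.926) and lymphatic endothelial-like nuclei at 0.771 (0.432 to 1.27), whose intervals overlapped. In the Hs3st4 and Grin3a cluster the 12 UMIs of the KO library lay in 3 nuclei. That unnamed cluster also held smooth muscle RNA, with Myh11 at 61.4 and Actg2 at 10.8 UMIs per 10000. A cluster of the smooth muscle-like class, led by Fbn2 and Lrrc7, had 59.7 and 26.0. Of 10 smooth muscle markers, 1 was 2-fold higher than in other nuclei in the unnamed cluster and 7 in the Fbn2 and Lrrc7 cluster. The best-matching list of the unnamed cluster was that of interstitial cells of Cajal, with 2 of 5 markers 2-fold higher, too few for a name. Mesothelial-like nuclei held the most Gja1 UMIs, 132 of 344, being 761 nuclei. Smooth muscle-like nuclei read 0.138 (0.101 to 0.183), with 47 UMIs in 1198 nuclei. Enteric neuron-like nuclei read 0.016, with 2 UMIs at a median of 6257 UMIs per nucleus. Pdgfra interstitial-like nuclei had 0 UMIs in 151 nuclei, with an interval up to 0.115.

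Gjc1 gave the most UMIs of the 5, 682, and 422 of them lay in smooth muscle-like nuclei at 1.24 (1.12 to 1.36). Interstitial cell of Cajal-like nuclei stood at 1.46 (0.99 to 2.07), Pdgfra interstitial-like nuclei at 1.09 (0.762 to 1.52) and the Hs3st4 and Grin3a cluster at 0.975 (0.671 to 1.37), all with overlapping intervals. Fibroblast-like nuclei read 0.578, enteric glia-like nuclei 0.483 (0.383 to 0.601) and mesothelial-like nuclei 0.195. Epithelial-like nuclei read 0.0985, and enteric neuron-like nuclei had 0 UMIs in 165 nuclei, with an interval up to 0.0295. So in smooth muscle-like nuclei Gjc1 stood above Gja1, while in bulk colon Gja1 was the higher per kb. The bulk values are counts of whole-tissue RNA and the nuclei values counts of nuclear 3′ ends, and the levels are not on one scale.

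In smooth muscle-like nuclei Gjc1 read 1.41 (1.25 to 1.59) in the WT library and 0.981 (0.824 to 1.16) in the KO library. The class was made up of different clusters in the libraries. A cluster led by Colec10 and Grm8 held 245 WT and 22 KO nuclei, and a cluster led by Dnah5 and Fn1 held 41 WT and 98 KO nuclei. In the Dnah5 and Fn1 cluster Gjc1 read 0.660 in WT and 0.793 in KO, and in the Id4 and Fgf7 cluster 1.27 and 1.09. In the Colec10 and Grm8 cluster it read 1.36 in WT and 0.682 in KO, and in the Gm11946 and Tinagl1 cluster 1.28 and 0.729. The intervals of the 2 libraries overlapped in each of these 4 clusters. In the Fbn2 and Lrrc7 cluster it read 2.65 (1.99 to 3.47) in WT and 1.22 (0.936 to 1.56) in KO, without overlap. The KO value was thus the lower in 4 of the 5 clusters. Gja1 in the smooth muscle-like class read 0.0743 (0.0416 to 0.123) in WT and 0.229 (0.157 to 0.323) in KO. Of its 32 KO UMIs, 15 lay in the Fbn2 and Lrrc7 cluster and 13 in the Dnah5 and Fn1 cluster. In WT and KO, Gja1 read 0.10 (0.012 to 0.36) and 0.29 (0.16 to 0.48) in the Fbn2 and Lrrc7 cluster. The Dnah5 and Fn1 cluster had 0.15 (0.018 to 0.53) and 0.29 (0.16 to 0.50), and the Id4 and Fgf7 cluster 0.14 in both. The Gm11946 and Tinagl1 cluster had 0.058 and 0.091, and the Colec10 and Grm8 cluster 0.040 and 0. The Gja1 intervals of the libraries overlapped in each of the 5 clusters. In fibroblast-like nuclei Gja1 read 1.30 (0.622 to 2.38, from 5 of 32 nuclei) in WT and 0.185 (0.0503 to 0.473) in KO. These are differences between 2 libraries, with no replicate check.

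**Figure D3:**
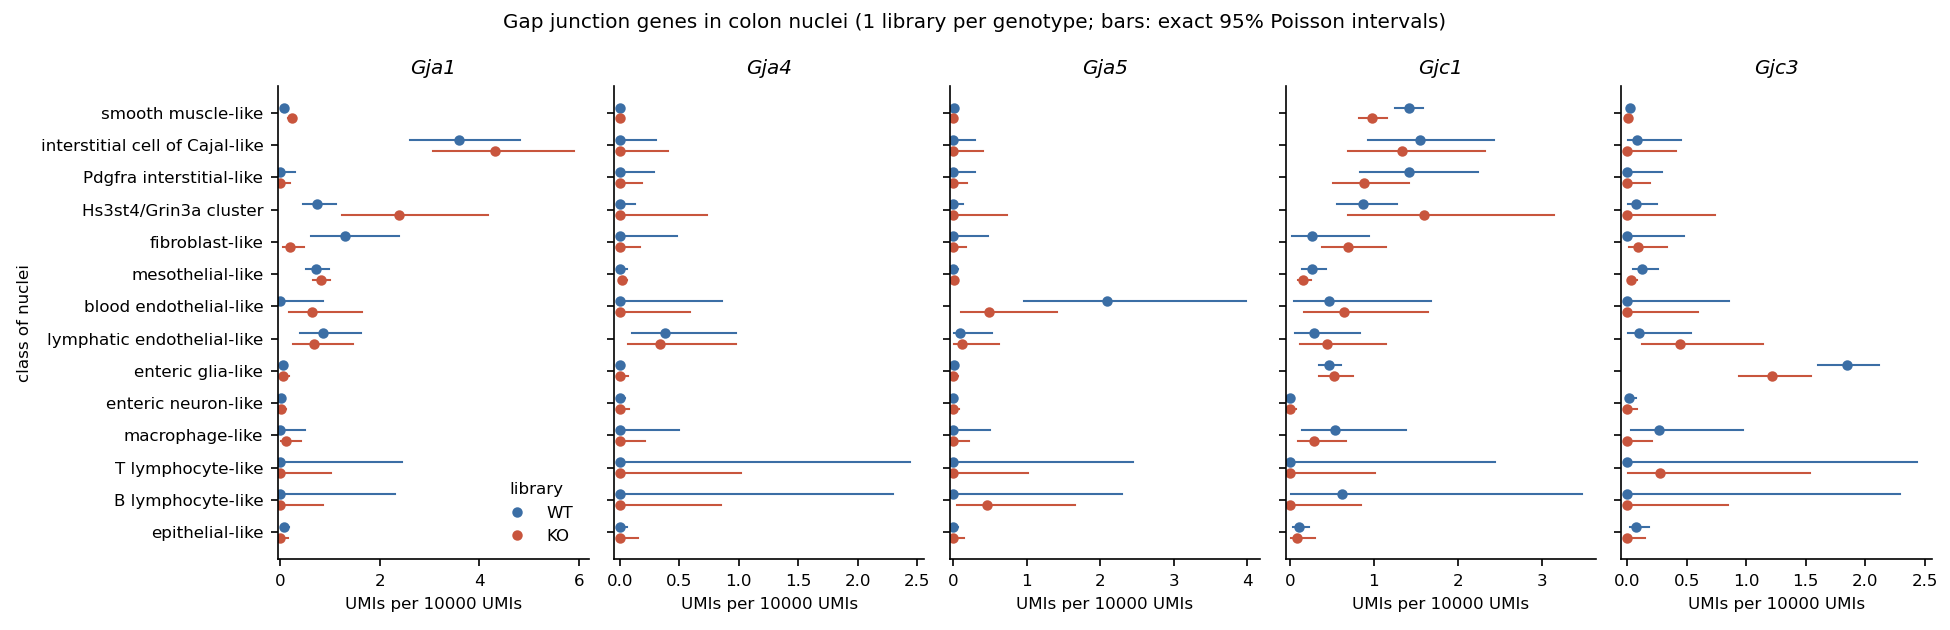
Level of each gene (UMIs per 10000 UMIs, linear axis) in 14 classes of colon nuclei, for the WT (blue) and KO (red) library; lines are exact 95% Poisson intervals, which cover counting error only. Gja1 is highest in interstitial cell of Cajal-like nuclei of both libraries, and Gjc3 in enteric glia-like nuclei.

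Gjc3 was found mainly in enteric glia-like nuclei, with 272 of 305 UMIs at a level of 1.64 (1.45 to 1.85), in 202 of 655 nuclei. Smooth muscle-like nuclei, at a median depth of 2027 UMIs beside 1939 in glia, read 0.0146, and enteric neuron-like nuclei 0.008. All 3 glia-like clusters held it: 2.29 (1.69 to 3.02) in the one led by Col28a1, 1.73 (1.24 to 2.34) in the one led by Slc18a2 and 1.51 (1.30 to 1.75) in the one led by Sox2ot. In the WT library the glia-like class read 1.85 (1.60 to 2.11) and in the KO library 1.21 (0.937 to 1.55). The intervals were apart in the Sox2ot cluster, at 1.77 (1.49 to 2.08) in WT and 0.996 (0.712 to 1.36) in KO. In the Col28a1 cluster the WT and KO libraries read 2.45 and 1.98, and in the Slc18a2 cluster 1.73 and 1.72, both with overlapping intervals. The bulk colon libraries gave Gjc3 no call between labels, and the mean there was higher in KO (5.79 ± 3.22 CPM, SD, n = 3) than in WT (3.77 ± 1.27).

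The vessel connexins were sparse in nuclei. No cluster took the name of the vascular mural cells, so nuclei of that type, if present, were counted within other classes. Gja5 gave 21 UMIs, of which 12 lay in 5 of the 57 blood endothelial-like nuclei, at 1.14 (0.589 to 1.99), and 3 in smooth muscle-like nuclei at 0.00879. The WT library gave 9 of the 12 and the KO library 3. Gja4 gave 9 UMIs, 7 of them in 7 of the 88 lymphatic endothelial-like nuclei at 0.36 (0.145 to 0.742) and 2 in mesothelial-like nuclei. The lymphatic endothelial-like nuclei also held smooth muscle RNA, with Myh11 at 33.6 and Actg2 at 14.97, beside 5.22 and 1.04 in blood endothelial-like nuclei, and Myh11 was read in all 24 clusters. Smooth muscle-like nuclei had 0 Gja4 UMIs and read 0.138 for Gja1, beside 0.771 in the lymphatic endothelial-like class. Whether RNA or nuclei of other cells gave part of the Gja4 and Gja1 UMIs of the lymphatic endothelial-like class was not tested. Blood endothelial-like nuclei had 0 Gja4 UMIs, with an interval up to 0.35. The place of Gja4 depended on the upper limit of 20000 UMIs per nucleus, set after the data were seen: without it, its level in the class named lymphatic was 0.0346 and the blood endothelial-like class was the highest. With a minimum of 1000 UMIs the lymphatic endothelial-like level was 0.176.

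**Figure D4:**
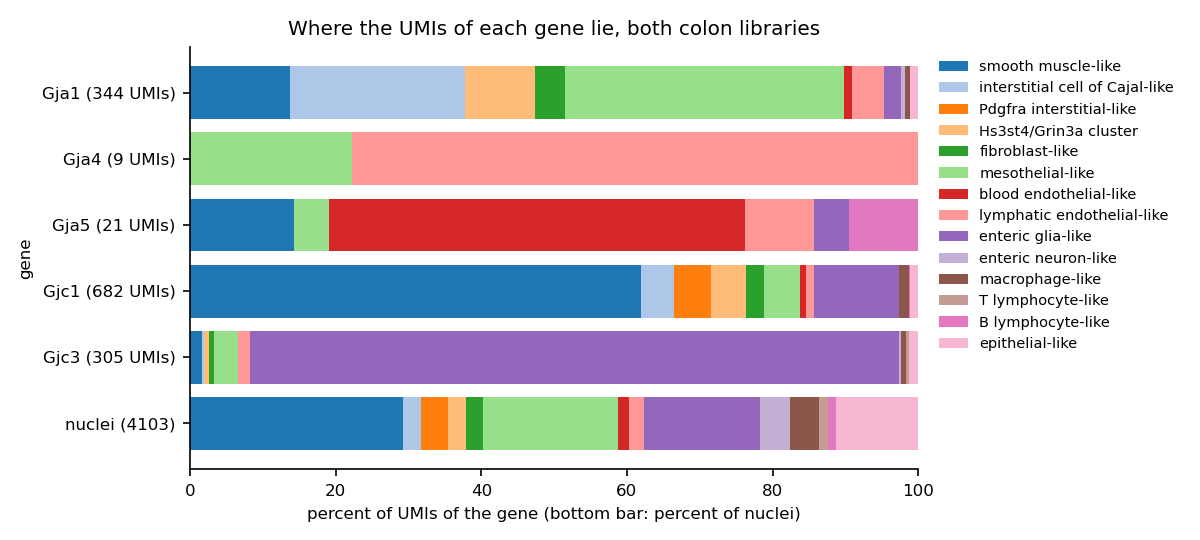
Share of each gene's UMIs (percent) found in each class of colon nuclei, both libraries together, with the share of nuclei in the bottom bar. Most Gjc3 UMIs lie in enteric glia-like and most Gjc1 UMIs in smooth muscle-like nuclei, while Gja1 is spread over interstitial cell of Cajal-like, mesothelial-like and other nuclei.

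Of the other connexins and pannexins, 2 reached 20 UMIs in nuclei. Gjb5 gave 62 UMIs, 61 of them in mesothelial-like nuclei at 0.361 (0.276 to 0.463), so this class held both Gja1 and Gjb5. Panx1 gave 106 UMIs spread over the classes. It read 0.778 in T lymphocyte-like (4 UMIs), 0.272 in fibroblast-like (8 UMIs), 0.234 in epithelial-like (19 UMIs) and 0.0732 in smooth muscle-like nuclei (25 UMIs).

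Open chromatin counts of the same nuclei were thin at these genes. Of 35003 regions called in the WT library, 6 lay within the members' genes and 20 kb on either side, and of 26493 in the KO library 3 did. In WT, 1 region at chr4:127313642-127314480 covered the start of Gja4 and the whole printed window with its GC box. It held 46 counts. Region counts were not halved, and many were even, so single counts may not be independent and the intervals below may be too narrow. Per 100000 region counts of the class it read 3.43 (2.15 to 5.19, 22 counts) in smooth muscle-like, 3.31 (1.51 to 6.28, 9 counts) in enteric neuron-like and 6.66 (0.806 to 24.0, 2 counts) in lymphatic endothelial-like nuclei, and these intervals overlapped. No Gja4 UMI was seen in the smooth muscle-like or enteric neuron-like class. The WT region nearest to the Gja1 start was 39467 bases away, with 24 counts, so no region was called over the printed Gja1 window. Gja5 had 3 regions in each library, the largest at its most upstream annotated start with 121 counts in WT and 70 in KO, where Gpr89 also lies. Gjc1 had no region in either library. Regions were called per library, so a region listed in only 1 library is no measured difference.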

How the data were processed

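For the 12 bulk libraries the deposited values are raw counts by Ensembl gene in 1 table by the authors, who also deposited matrices of counts per nucleus for 2 colon libraries. Per the submitters' processing notes, STAR 2.0.4b, featureCounts 1.4.5, edgeR and Cell Ranger were used, with the builds GRCm38 and mm10. Per the file headers, cellranger-arc 2.0.0 made the matrices. The sources used here do not state the annotation version or the use of strand. Of 40757 rows, 276 repeated a gene and were dropped.

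Bulk counts were fitted in edgeR 4.0.16 (quasi-likelihood, TMM scaling, filterByExpr, 4 groups in 1 fit), with Benjamini-Hochberg adjustment over 20886 genes and a threshold of 0.05. Tests were checked on simulated data. CPM uses TMM-scaled library totals. Lengths and gene positions are from GENCODE M21 (GRCm38). DESeq2 1.42.0, limma 3.58.1, other scalings and filters, fits of the 6 libraries compared, a replicate block and leaving out each library were the alternatives.

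All gene values in the nuclei matrices were even and were halved to give UMIs, which assumes that each UMI was counted 2 times. For a fixed set of nuclei the ratio behind a level per 10000 UMIs is the same without halving. The UMI numbers and the intervals would change, and the same limits on UMIs would keep other nuclei. Nuclei with 500 to 20000 UMIs were kept. The doublet caller's own threshold marked 199 WT and 4 KO nuclei, so the 5% with the highest doublet scores, ties included, were removed instead (148 and 109). Clustering used scanpy 1.11.5 with 2000 variable genes, 30 components and resolution 1.0. A cluster took the name of the list with the highest share of its fixed markers 2-fold higher. At least 3 such markers and a minimum share of the list were needed. The mesothelial-like class includes a cluster of 117 nuclei led by mitochondrial genes. It had 3 of 6 mesothelial markers 2-fold higher and a median of 1056 UMIs. RefSeq held a promoter for 4 of the 5 members.

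The members, lists and markers were chosen with earlier results of these data known. Genes named are the 5 members, Carmn, for each member the 3 most similar genes with a mean log2 CPM of at least 1, of each list the 3 with the highest mean CPM and any called, and other connexins with at least 20 UMIs in nuclei. Some genes that this rule names are not reported here.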

Additional observations from a re-analysis of the deposited data

How the results depend on the processing

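Gja1 was called between WT colon and WT jejunum under each of 9 alternatives (log2 fold change -1.58 to -1.48, adjusted p 4.705e-09 to 0.0148) and without each of the 12 libraries in turn (-1.67 to -1.46, adjusted p 0.00092 to 0.0425). With only the 6 libraries compared, the members called between KO colon and KO jejunum fell to 0. Same-tag WT libraries deviated together with correlations of 0.1002, -0.00797 and 0.0609, and not every library correlated best with its own tag, so the tags were not taken to pair the libraries. With the tag as a replicate block 1 member was called between WT tissues, Gja1, and 590 genes in all, beside 904 in the same 6 libraries without the block. No paired analysis was possible between KO and WT because they share 1 tag in each tissue.

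The Gja1 difference of the colon and jejunum changes, near 0, turned sign with RLE scaling (0.00262), total counts (0.0971), TMM without mitochondrial and top 20 genes (0.0264), no filter (0.0427), limma voom (0.00715) and DESeq2 (0.00284), and ranged from -0.118 to 0.265 when 1 library was left out. Leaving out 1 library also turned the sign of uncalled values: Gjc1 difference of changes (-0.172 to 0.355), Gja5 in colon (-0.740 to 0.138), in jejunum (-0.654 to 0.255) and their difference (-0.639 to 0.271), and Gjc3 between WT tissues (-0.375 to 0.0507). In nuclei, Gja1 in interstitial cell of Cajal-like nuclei read 1.13 at resolution 0.5, where that class held 233 nuclei, and Gja4 in lymphatic endothelial-like nuclei 0.0346 with no UMI maximum, a setting chosen after seeing the data. The causes were not tested. Counts as low as 30 for Gja4 and 46 for Gjc3 limit single libraries, and 9 and 21 UMIs limit Gja4 and Gja5 in nuclei. Without 1 library, the number of all genes called between labels ranged from 7 to 180 in colon and from 2 to 172 in jejunum.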
